A study of Mus musculus with 2 samples.

Results

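Within B cells sorted from the mouse colon, a small set carried transcripts of at least 2 of the genes Egr2, Egr3, Nfkbid and Myc. Cells were selected on these 4 genes: at least 3 summed UMIs (unique molecular identifiers, which count captured transcripts) from at least 2 of the genes, and under 20% of UMIs from immunoglobulin and J chain genes. The rule found 249 of 7982 cells, called activated cells here: 107 of 3290 in the day 0 library and 142 of 4692 in the day 14 library. They were compared with reference cells of the same day, which held 0 UMIs of these 4 genes and also under 20% immunoglobulin UMIs (2413 and 3549 cells).

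The cells came from the colonic lamina propria of female C57BL/6J mice and were read with the 10x Chromium 3′ version 2 kit, 1 library a day. Day 0 mice were untreated. Day 14 mice had drunk 2% dextran sulfate sodium (DSS), which injures the colonic epithelium, for 7 days and had recovered for 7 days. Both samples carry a DSS treatment tag, so that day 0 was untreated is known from the protocol and design texts. How many mice went into each library is not stated in the sources at hand. With 1 library per group nothing below was tested. Intervals in parentheses are 95% and cover counting error only.

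A B cell that meets antigen, a T cell's CD40 ligand or a microbial product first transcribes immediate early genes, which need no new protein. These encode the EGR, AP-1 (FOS and JUN) and NR4A transcription factors. MYC drives cell growth, and Nfkbid encodes IκBNS, an atypical nuclear regulator of NF-κB. NF-κB in turn induces its own inhibitor Nfkbia, adhesion and survival genes, and such transcripts are short-lived.

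Of the 4 genes that chose the cells, Nfkbid was the most widespread. It had a UMI in 90.7% of activated cells at day 0 and 90.1% at day 14, Myc in 71.0% and 76.1%, Egr3 in 51.4% and 56.3%, and Egr2 in 22.4% and 33.1%. The summed UMIs of the 4 genes had a median of 4 at day 0 and 5 at day 14, with a highest value of 36 and 22. Nfkbid with Myc alone was the most frequent combination (37 and 45 cells), followed by Egr3 with Nfkbid and Myc (23 and 28 cells). All 4 genes together were found in 3 cells at day 0 and 14 cells at day 14. These values follow from the rule and support nothing by themselves.

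**Figure D1:**
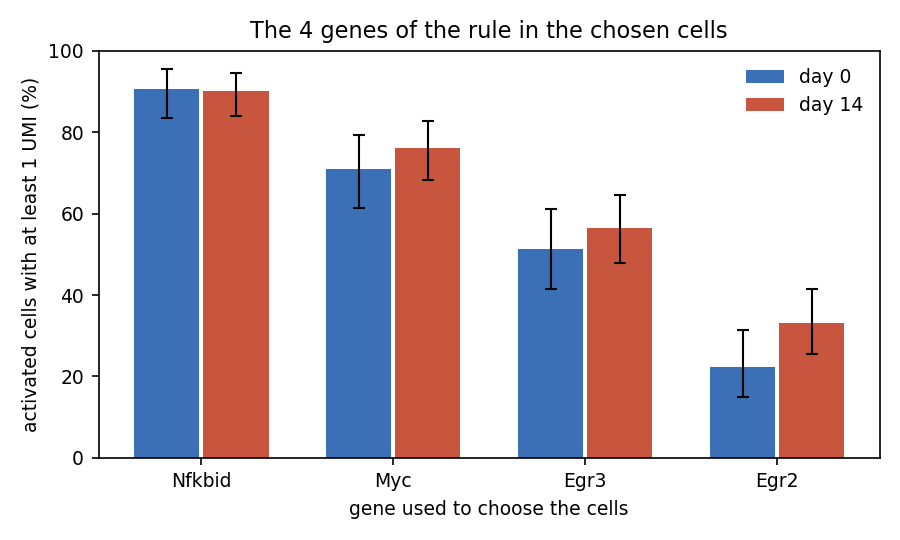
Share of activated cells with at least 1 UMI (y axis, percent) of each gene used to choose them (x axis), at day 0 (blue, 107 cells) and day 14 (red, 142 cells); bars are shares and lines exact 95% binomial intervals. Nfkbid was found in about 90% of the cells on both days and Egr2 in the fewest.

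Activated cells made up 3.25% (2.67 to 3.92) of the day 0 library and 3.03% (2.56 to 3.56) of the day 14 library, and the intervals overlapped. The order of the days was not stable. With at least 4 summed UMIs the shares were 1.95% and 2.13%. After thinning every cell to 1000 UMIs they were 0.399% (0.213 to 0.682) and 0.821% (0.582 to 1.13), which left out 34 and 63 shallower cells. Depth moved with the rule. Activated cells had a median of 2900 UMIs at day 0 and 2734 at day 14, against 2211 and 2169 in reference cells. Cells above 2 times the median of their library were 11.2% and 15.5% of activated cells, against 3.27% and 5.35% of reference cells. Mitochondrial UMIs had medians of 2.87% and 3.23% in activated and 3.15% and 3.40% in reference cells. The libraries shared 17 cell barcodes, of which 1 was an activated cell at day 0 and 0 at day 14.

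At the edge of the rule, 61 cells at day 0 and 73 at day 14 had 2 UMIs from 2 of the genes and stayed outside, while 43 and 42 cells had exactly 3 and were inside. Levels are given in CPM, UMIs scaled to a total of 1000000 over all genes except immunoglobulin and mitochondrial ones. Nr4a1, which was not in the rule, stood at 554 CPM in the cells just outside and 703 just inside at day 0, and at 572 and 662 at day 14. Egr1, also not in the rule, stood at 66.2 and 253 at day 0 and at 212 and 354 at day 14. Icam1 went the other way, with 36.1 outside and 32.7 inside at day 0 and 120 and 90.7 at day 14. It rested on at most 22 UMIs in any of these groups. Another 35 and 56 cells had 3 or more UMIs from 1 gene only and were not taken.

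The activated cells carried B cell transcripts and hardly any defining transcripts of other lineages. The 6 B cell markers summed to 30916 and 30219 CPM in activated cells and to 33487 and 32087 in reference cells, and every activated cell had at least 3 of their UMIs. The 7 T cell markers gave 2 UMIs in all activated cells on each day, with Cd3e, Cd3d, Cd4 and Cd8a at 0 on both days. Of 6 myeloid markers, Lyz2, Csf1r, S100a8 and S100a9 were at 0 on both days, and the list, at day 14 through Cst3 alone, summed to 172 and 150.4 CPM against 176 and 219 in reference cells. The 5 epithelial markers gave 4 and 1 UMIs. The 5 stromal and endothelial markers summed to 47.4 and 57.8 CPM against 58.9 and 49.8, with Col1a2 and Kdr at 0 in activated cells on both days. The 8 plasma cell markers summed to 602 and 465 CPM in activated cells, below the 799 and 669 of reference cells. The 6 germinal center markers summed to 133 and 32.4 in activated and 93.6 and 42.6 in reference cells, resting on 45 and 14 UMIs in activated cells. The B cell part of the label thus matched the markers. The word activated comes from the 4 genes that chose the cells, and these markers do not bear on it.

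Heavy chain constant transcripts were mostly Ighm and Ighd, those of B cells that have not switched class. A cell with at least 2 such UMIs was called by the larger part. Unswitched transcripts led in 90.7% of the 107 activated cells of day 0 (83.5 to 95.4) and in 84.5% of the 142 of day 14 (77.5 to 90.0). In reference cells the shares were 80.6% and 80.3%. Switched transcripts led in 3 activated cells at day 0 and 2 at day 14. An Igha UMI was found in 47.7% of activated cells at day 0 and 10.6% at day 14, and in 36.5% and 13.3% of reference cells. None of these shares was adjusted for depth, and activated cells had the higher median UMIs on both days. Levels here are UMIs scaled to a total of 1000000 over all genes. Igha stood at 171 in activated and 352 in reference cells at day 0, and at 64.4 and 264 at day 14. Ighd was at 368 and 456 at day 0 and at 340 and 470 at day 14. Ighm was higher in activated cells at day 0 (1586 and 1481) and lower at day 14 (1130 and 1311). The part of free RNA in these shares and levels was not measured.

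Because the rule chose the cells within the same libraries, ratios of activated over reference cells describe the cells and test nothing. A gene was measured where equal levels would give at least 10 UMIs in the activated cells of each day, which 3508 genes did. A ratio of 2 either way was counted as higher or lower. At day 0, 59 genes were higher (1.68% of those measured) and 89 lower (2.54%). At day 14, 75 were higher (2.14%) and 66 lower (1.88%). On both days 48 genes were higher (1.37%) and 5 lower (0.143%). The median log2 ratio over all measured genes was -0.03 at day 0 and -0.04 at day 14. Of the 48 genes, 28 belong to the gene lists described below, and 43 were also higher on both days when reference cells were weighted to the UMI distribution of the activated cells.

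**Figure D2:**
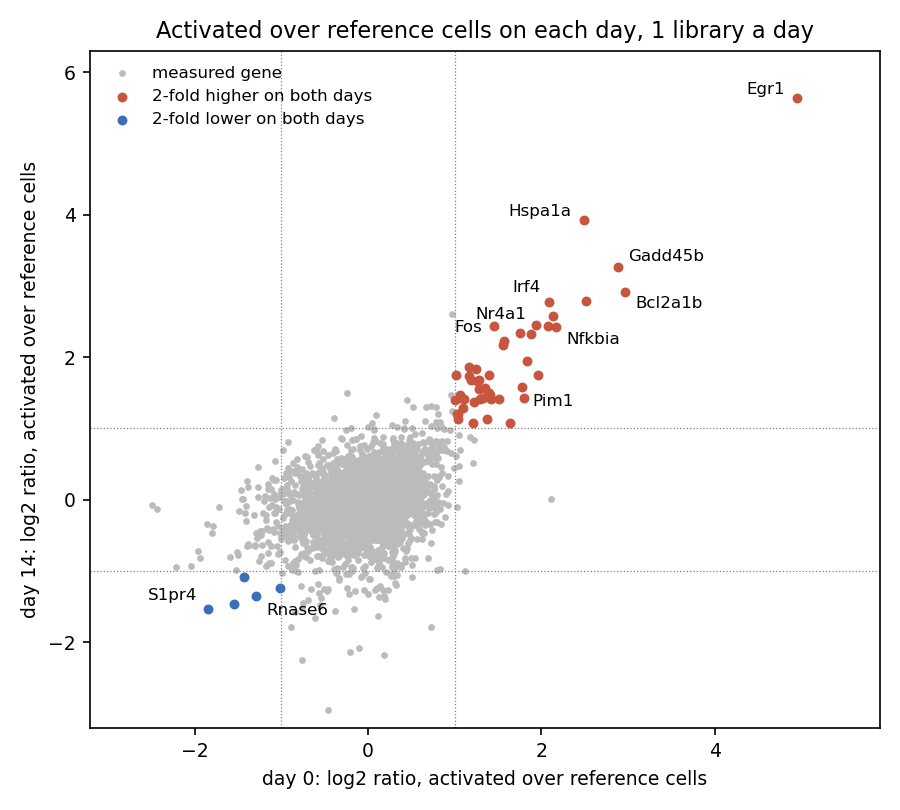
Each point is 1 of 3508 measured genes, with the log2 ratio of activated over reference cells at day 0 (x axis) and at day 14 (y axis); dotted lines mark 2-fold. The 48 genes higher on both days (red) lie in the upper right corner with Egr1 farthest out, and the 5 lower on both days (blue) at the lower left.

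Immediate early genes had the highest median ratio of the 20 lists on both days. Of 28 listed genes 19 were measured, and 11 of these were at least 2-fold higher on both days (Egr1, Nr4a1, Nr4a2, Fos, Fosb, Ier5, Mafk, Csrnp1, Ppp1r15a, Zfp36 and Gadd45b). None was lower on both days. The median log2 ratio of the 19 was 1.19 at day 0 and 1.67 at day 14. By summed level the order differed: immediate early genes were at 1.89 and 2.58 times the reference, phosphatase and Sprouty genes at 2.57 and 2.97, and survival genes at 2.42 and 2.52.

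Egr1, a zinc finger factor of the same family as Egr2 and Egr3 but not in the rule, gave the largest ratio among the measured genes. It stood at 459.6 CPM in activated and 14.9 in reference cells at day 0, and at 490.4 and 9.82 at day 14. The ratios were 30.9 (23.5 to 40.7) and 49.9 (38.5 to 65.2). Against all other cells of the library under the immunoglobulin limit, which include cells with UMIs of the 4 genes, they were 18.9 and 16.2, so the order of the days turned. Single activated cells ranged from 0 to 15 UMIs with a median of 0 at day 0, and from 0 to 12 with a median of 1 at day 14. A UMI was found in 46.7% and 55.6% of them, against 2.57% and 1.63% of reference cells. After thinning to 1000 UMIs these shares were 27.1% and 33.8%, against 1.26% and 0.601%. So the difference was also present at equal depth, but many activated cells held no Egr1 UMI.

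Nr4a1, an orphan nuclear receptor widely used as a reporter of antigen receptor signals, was found in most activated cells. It had a UMI in 94 of 107 and 121 of 142 activated cells, with a median of 2 UMIs a cell on both days and up to 13 and 21. Of reference cells 38.7% and 30.0% had a UMI of Nr4a1. Its level was 952 CPM against 248 in reference cells at day 0 and 1009 against 184 at day 14, ratios of 3.84 (3.39 to 4.34) and 5.48 (4.92 to 6.10). Its relative Nr4a2 rested on 37 and 62 UMIs, with ratios of 4.39 (2.97 to 6.34) and 5.96 (4.41 to 7.95). Junb, an AP-1 subunit and the listed gene with most UMIs, differed less: 2138 against 1528 CPM at day 0 and 2144 against 1165 at day 14, ratios of 1.40 and 1.84. Fos, its partner, had ratios of 2.75 and 5.42.

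Zfp36, which encodes the messenger-destabilizing protein tristetraprolin, had ratios of 3.89 (3.21 to 4.69) and 3.38 (2.79 to 4.06). Dusp2, a nuclear phosphatase that inactivates MAP kinases, stood at 815 against 228 CPM at day 0 and 706 against 184 at day 14, ratios of 3.58 and 3.84. Dusp1, a phosphatase of the same family, had ratios of 2.38 and 3.19. These were 2 of the 4 measured among 11 listed phosphatase and Sprouty genes. The other two did not reach 2-fold, with log2 ratios of 0.29 and 0.61 for Dusp4 and 0.38 and 0.55 for Dusp5. Gadd45b, a stress sensor induced by NF-κB, stood at 463 against 62.9 CPM at day 0 and 618 against 64.3 at day 14, ratios of 7.35 (6.05 to 8.90) and 9.60 (8.26 to 11.1). It was found in 44 of 107 activated cells at day 0, so its UMIs came from fewer cells than those of Nr4a1.

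The promoters of 6 of these genes are shown because the genes were high together and because Egr2 and Egr3 were among the genes that chose the cells. These 6 promoters were picked by hand and each holds at least 1 marked match, so they do not stand for all the higher genes. They are the 250 bases before the RefSeq start (GRCm38.p6), read 5′ to 3′ on the gene's strand: Nr4a1 chr15:101266596-101266845 (+ strand), Gadd45b chr10:80929841-80930090 (+ strand), Dusp2 chr2:127335909-127336158 (+ strand), Zfp36 chr7:28379229-28379478 (- strand), Bcl2a1b chr9:89199023-89199272 (+ strand), Nfkbia chr12:55492648-55492897 (- strand). Capitals mark matches to GCGNGGGCG (EGR site), TGANTCA (AP-1 site), the CArG box (serum response factor) or the NF-κB consensus on either strand.
Nr4a1: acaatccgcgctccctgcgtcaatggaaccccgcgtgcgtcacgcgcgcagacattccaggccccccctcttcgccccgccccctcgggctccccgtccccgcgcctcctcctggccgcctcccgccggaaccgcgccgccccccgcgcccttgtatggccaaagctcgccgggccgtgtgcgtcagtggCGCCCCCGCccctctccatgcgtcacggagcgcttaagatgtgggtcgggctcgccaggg
Gadd45b: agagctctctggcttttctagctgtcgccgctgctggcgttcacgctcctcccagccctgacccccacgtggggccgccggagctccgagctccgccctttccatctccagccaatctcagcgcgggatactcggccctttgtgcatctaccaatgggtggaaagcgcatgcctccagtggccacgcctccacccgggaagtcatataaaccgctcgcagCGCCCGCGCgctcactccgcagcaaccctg
Dusp2: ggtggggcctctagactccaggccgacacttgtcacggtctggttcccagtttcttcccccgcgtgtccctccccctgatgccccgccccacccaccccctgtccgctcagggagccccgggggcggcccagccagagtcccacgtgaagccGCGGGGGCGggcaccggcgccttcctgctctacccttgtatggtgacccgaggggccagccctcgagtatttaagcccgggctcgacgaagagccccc
Zfp36: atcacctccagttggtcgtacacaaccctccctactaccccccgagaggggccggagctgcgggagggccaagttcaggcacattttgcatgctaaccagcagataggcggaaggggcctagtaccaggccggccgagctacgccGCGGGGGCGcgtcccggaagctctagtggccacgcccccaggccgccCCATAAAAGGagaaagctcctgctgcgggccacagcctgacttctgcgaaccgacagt
Bcl2a1b: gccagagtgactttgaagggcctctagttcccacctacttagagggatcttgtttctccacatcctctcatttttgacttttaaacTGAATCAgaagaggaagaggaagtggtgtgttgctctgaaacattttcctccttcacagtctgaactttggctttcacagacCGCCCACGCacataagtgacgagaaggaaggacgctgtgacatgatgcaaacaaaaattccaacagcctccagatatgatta
Nfkbia: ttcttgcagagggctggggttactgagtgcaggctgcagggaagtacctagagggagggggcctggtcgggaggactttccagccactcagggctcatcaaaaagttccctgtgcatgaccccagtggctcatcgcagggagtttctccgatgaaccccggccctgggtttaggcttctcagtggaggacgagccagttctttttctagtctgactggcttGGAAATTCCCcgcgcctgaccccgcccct
Nr4a1, Gadd45b, Dusp2 and Zfp36 hold 1 EGR match each, Zfp36 also a CArG box, Bcl2a1b an EGR and an AP-1 match, and Nfkbia an NF-κB match that ends 20 bases before its start. RefSeq windows were found for 38 of the 48 genes higher on both days, 50 windows in all. The EGR match occurred in 17 of these 50 (34%, in 15 genes), in 8.69% of the 3555 windows of measured genes and in 4.70% of all 32851 windows. The windows of the higher genes were richer in G and C, with a median of 63.6% against 60% for measured genes and 52.4% for all, and this was not adjusted for. AP-1 matches were in 12% of the 50 windows, 4.22% of those of measured genes and 6.75% of all, and NF-κB matches in 8%, 4.53% and 3.90%. The cAMP response element TGACGTCA was in 6%, 3.43% and 1.55%, and CArG boxes in 2%, 1.13% and 1.47%. The heat shock element was in 0 of the 50 windows, 0.506% of those of measured genes and 0.466% of all. Bcl2a1b and Bcl2a1d are near-identical copies, so their windows are not independent. A match is a run of letters, not a measured binding site.

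Most of the listed NF-κB genes did not pass 2-fold on both days. Of 22 listed subunit and feedback genes 19 were measured, and 2 were higher on both days (Nfkbia and Traf1). Over all 3508 measured genes the share higher on both days was smaller, at 1.37%. The median log2 ratio of the NF-κB list was 0.45 and 0.39. Another 3 were higher on 1 day only, with log2 ratios of 1.06 and 0.70 for Nfkbib, 0.83 and 1.09 for Nfkbie and 0.78 and 1.30 for Tnfaip3. Cflar was lower at day 0 only, at -1.05 and 0.28. The list summed to 1.75 and 1.91 times the reference level. Nfkbia, which encodes the inhibitor IκBα, stood at 967 against 215 CPM at day 0 and 1247 against 233 at day 14, ratios of 4.50 (3.97 to 5.08) and 5.35 (4.85 to 5.88). Traf1, a signalling adaptor below TNF receptor family members, had ratios of 2.61 and 2.82. Rel, the c-Rel subunit and the gene with most UMIs of the list, was at ratios of 1.68 and 1.59, so it did not reach 2-fold on either day. Nfkbiz, another atypical IκB gene, was too scarce to be measured, with 25 and 41 UMIs in activated cells and ratios of 6.43 (3.89 to 10.3) and 8.42 (5.69 to 12.3). It is named after its values were seen.

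Among surface genes, Icam1, the adhesion partner of LFA-1, was high but below the abundance filter, with 45 UMIs in 20 of 107 activated cells at day 0 and 87 UMIs in 42 of 142 at day 14. Its level was 133 against 21.3 CPM at day 0 and 201 against 20.7 at day 14, ratios of 6.27 (4.35 to 8.90) and 9.71 (7.42 to 12.6). Of 22 listed costimulation and activation genes 12 were measured and 2 were higher on both days. Cd69, which retains activated lymphocytes in tissue, stood at 445 against 151 CPM at day 0 and 571 against 127 at day 14, ratios of 2.95 and 4.50. Cd274, which encodes PD-L1, had ratios of 2.00 and 2.64, and its day 0 ratio lay at the limit. That ratio fell below 2 under several alternatives. It was 1.42 with at least 4 summed UMIs, 1.74 without the cell holding most of the UMIs and 1.84 against all other cells of the library. Cd83, a maturation marker and the gene with most UMIs of the list, was at 1.95 and 2.37, and was found in 103 of 107 and 130 of 142 activated cells. It was also found in 80.6% and 68.5% of reference cells. Cd86, the CD28 ligand, was at 1.11 and 1.28.

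Survival genes were led by the BCL2A1 family. Of 19 listed genes 10 were measured and 3 were higher on both days (Bcl2a1b, Bcl2a1d and Pim1). Bcl2a1b, an antiapoptotic NF-κB target, stood at 827 against 106 CPM at day 0 and 726 against 96.0 at day 14, ratios of 7.78 (6.72 to 8.98) and 7.57 (6.62 to 8.64). Bcl2a1d had ratios of 5.72 and 6.90. The split of reads between these copies is uncertain. Pim1, a serine kinase that promotes survival and growth, had ratios of 3.43 and 2.99.

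The growth genes that MYC induces were only slightly higher. Of 41 listed genes 33 were measured and 0 were 2-fold higher or lower on both days. The median log2 ratio was 0.42 at day 0 and 0.24 at day 14, and their summed level was 1.39 and 1.24 times that of reference cells. Npm1, the nucleolar histone chaperone and the gene with most UMIs of the list, had ratios of 1.34 and 1.21. Ncl, which encodes nucleolin, was at 1.61 and 1.46. The 14 measured glycolysis and nutrient genes had median log2 ratios of 0.32 and 0.05 with none 2-fold apart on both days. Of 31 cell cycle genes 7 were measured and 0 were 2-fold apart on both days. Mki67 and Top2a were among those too scarce to be measured, so most of the cycle was not readable at this depth. The counts of 0 in these lists lie near the share over all 3508 measured genes, 1.37% higher and 0.143% lower on both days.

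Of 17 measured fate transcription factors, Irf4 and Bhlhe40 were higher on both days. Irf4, whose dose steers B cells between germinal center and plasma cell fates, stood at 116 against 27.3 CPM at day 0 and 150.4 against 22.0 at day 14, ratios of 4.24 (2.90 to 6.05) and 6.82 (5.06 to 9.10). It had a UMI in 30 of 107 and 45 of 142 activated cells, with at most 2 and 4 in a cell. Bhlhe40, a basic helix-loop-helix repressor, had ratios of 3.69 and 5.03. Ebf1, a B lineage factor and the gene with most UMIs of the list, was at 0.800 and 0.927. Bcl6 and Prdm1 were too scarce to be measured.

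Trafficking receptors went both ways. Gpr183, the oxysterol receptor that guides activated B cells to the follicle's edge, had ratios of 2.02 (1.54 to 2.61) and 3.35 (2.76 to 4.04). Its day 0 ratio lay at the limit and fell below 2 under 7 alternatives, to 1.87 without the cell holding most of its UMIs. Rgs1, which damps chemokine receptor signals, was at 2.06 and 2.31, but fell below 2 on both days (1.63 and 1.88) without the cell holding most of its UMIs. At day 0 it was also at 1.67 without cells above 2 times the median UMIs and at 1.30 against reference cells weighted to the depth of activated cells. S1pr4, a receptor for sphingosine 1-phosphate, was lower: 26.7 against 96.1 CPM at day 0 and 27.8 against 80.1 at day 14, ratios of 0.278 (0.126 to 0.531) and 0.346 (0.178 to 0.609). It had 9 and 12 UMIs in activated cells. The ratios were 0.481 and 0.527 where 2 summed UMIs were enough, above the 2-fold limit at day 14, and 0.0969 at day 0 with at least 4. Ccr7, which guides cells to T cell zones, was at 1.19 and 1.23.

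The other genes lower on both days were Rnase6 (an antimicrobial ribonuclease, ratios of 0.409 and 0.391), Tnfaip8l2 (a negative regulator of immune receptor signals, 0.343 and 0.363), Tmem108 (0.497 and 0.422) and Exoc3 (an exocyst subunit, 0.372 and 0.473). Each rested on at most 18 UMIs a day in activated cells, and the interval of Exoc3 at day 14 (0.172 to 1.04) included 1. Of the 5 genes, S1pr4 included, Tnfaip8l2 alone was 2-fold lower on both days where 2 summed UMIs were enough, and S1pr4 and Tnfaip8l2 with at least 4. Rnase6 at day 14 was at 0.645 with at least 2. Cd79b, a signalling chain of the B cell receptor, was at 0.703 (0.607 to 0.810) and 0.601 (0.519 to 0.692). Arhgap45 was at 0.587 and 0.432, past 2-fold at day 14 and not at day 0. Of 23 measured receptor signalling genes 0 were 2-fold apart on both days, near the share over all measured genes (1.37% higher and 0.143% lower). The receptor signalling genes summed to 0.884 and 0.894 times the level of reference cells. Cd79a was at 0.880 and 0.863. MHC class II presentation genes, 11 of 11 measured, summed to 0.923 and 0.979 times the reference level. Quiescence-associated genes had 1 of 18 measured higher on both days, Klf4, at 2.09 and 2.78, and none lower on both days. Another 3 were lower at day 0 only. Their log2 ratios were -1.93 and -0.82 for Slfn2, -1.42 and -0.19 for Klf3 and -1.04 and -0.76 for Cdkn1b. Tob2 was higher at day 14 only, with log2 ratios of 0.82 and 1.02. At day 0 Klf4 fell below 2 under 4 alternatives, to 1.56 without the heat shock cells described below and 1.76 without the cell holding most of its UMIs.

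**Figure D3:**
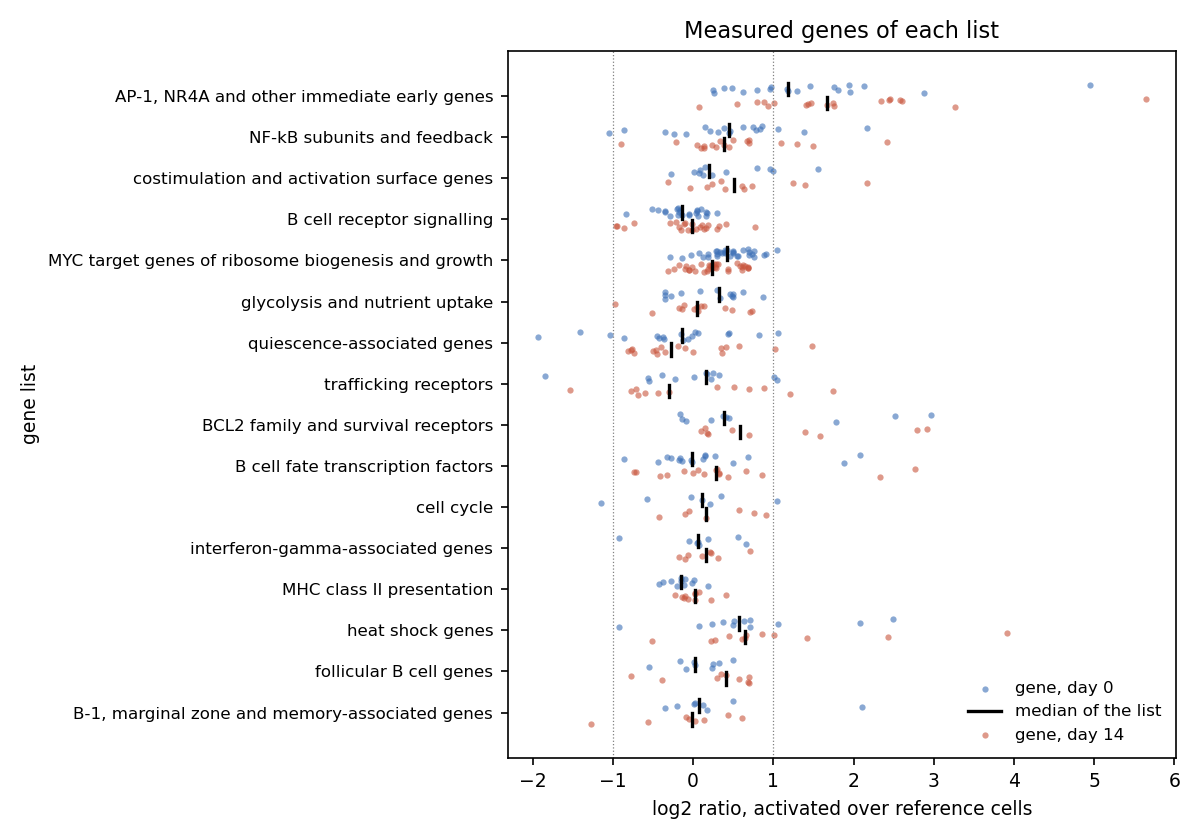
Log2 ratio of activated over reference cells (x axis) for each measured gene of the gene lists with at least 7 measured genes (y axis), at day 0 (blue) and day 14 (red); black bars are medians and dotted lines 2-fold. The immediate early genes have the highest medians on both days, 1.19 and 1.67, while B cell receptor signalling and MHC class II genes lie around 0.

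Some heat shock genes were also higher, Hspa1a in few cells. Of 16 listed genes 12 were measured, 3 were higher on both days (Hspa1a, Dnajb1 and Dnaja1), and the median log2 ratio was 0.57 and 0.65. Hspa1a, an inducible HSP70 chaperone, stood at 294 against 52.3 CPM at day 0 and 745 against 49.2 at day 14, ratios of 5.61 (4.42 to 7.07) and 15.1 (13.0 to 17.5). Only 9 of 107 and 20 of 142 activated cells had a UMI of it, with up to 44 and 27 in a cell, and 44.4% of its day 0 UMIs were in 1 cell. Dnaja1, an HSP40 cochaperone, was found in more cells, with a UMI in 57 and 81 activated cells, and Dnajb1 in 29 and 55. Of reference cells 32.9% and 29.7% had a UMI of Dnaja1, and 12.2% and 11.5% one of Dnajb1. Hspa1b, a near-identical copy of Hspa1a, may share reads with Hspa1a. Cells with at least 3 summed UMIs of Hspa1a, Hspa1b and Dnajb1 made up 8.41% of activated cells (9 cells, interval 3.92 to 15.4) in the day 0 library and 14.8% (21 cells, 9.39 to 21.7) in the day 14 library, against 1.49% and 1.13% of reference cells. Heat shock and immediate early transcripts can also be induced while tissue is digested and cells are sorted, and the part of handling in these values was not tested.

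Without those heat shock cells, 41 of the 48 genes were at least 2-fold higher on both days, 37 of them with enough UMIs to pass the abundance filter. The 7 others included Dnaja1, Klf4, and Hspa1a and Dnajb1, by which those cells were picked. The ratio of Egr1 was then 31.6 and 46.1, of Nr4a1 3.79 and 5.47, of Nfkbia 4.47 and 5.25 and of Icam1 5.93 and 10.4. Jun, the AP-1 subunit, was different: its day 14 ratio was 6.10 with them and 2.39 without them, while at day 0 it was 1.95 and 1.79. Without the activated cell holding most of a gene's UMIs, 37 of the 48 were at least 2-fold higher on both days, 36 of them past the filter.

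Several of these genes followed the UMIs of the 4 genes in steps, also below the rule. With 0, 1, 2, 3 to 4 and at least 5 UMIs, Nr4a1 stood at 248, 330.0, 421, 776 and 1212 CPM at day 0 and at 184, 276, 517, 685 and 1283 at day 14. Nfkbia went from 215 over 315, 388 and 801 to 1212 at day 0 and from 233 over 327, 539.8 and 841 to 1591 at day 14. Arhgap45 went the other way, from 313 to 132 at day 0 and from 284 to 85.6 at day 14. For these 3 genes cells with 1 UMI, which the rule leaves out, lay between. Not every gene did so: Icam1 stood at 21.3 and 21.5 CPM with 0 and 1 UMIs at day 0, and Nr4a2 at 36.7 and 27.7 with 1 and 2. All groups of a day share 1 library, and depth moved along: the median was 3121 UMIs a cell at day 0 and 2848.5 at day 14 in the group with at least 5. The groups with 3 or more UMIs hold activated cells only, so the rule enters these steps. Cells with 3 or more UMIs from 1 gene only (35 and 56) are in no group, and Nr4a1 stood at 488 and 552 CPM in them. The parts of depth and of the rule in these steps were not tested.

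**Figure D4:**
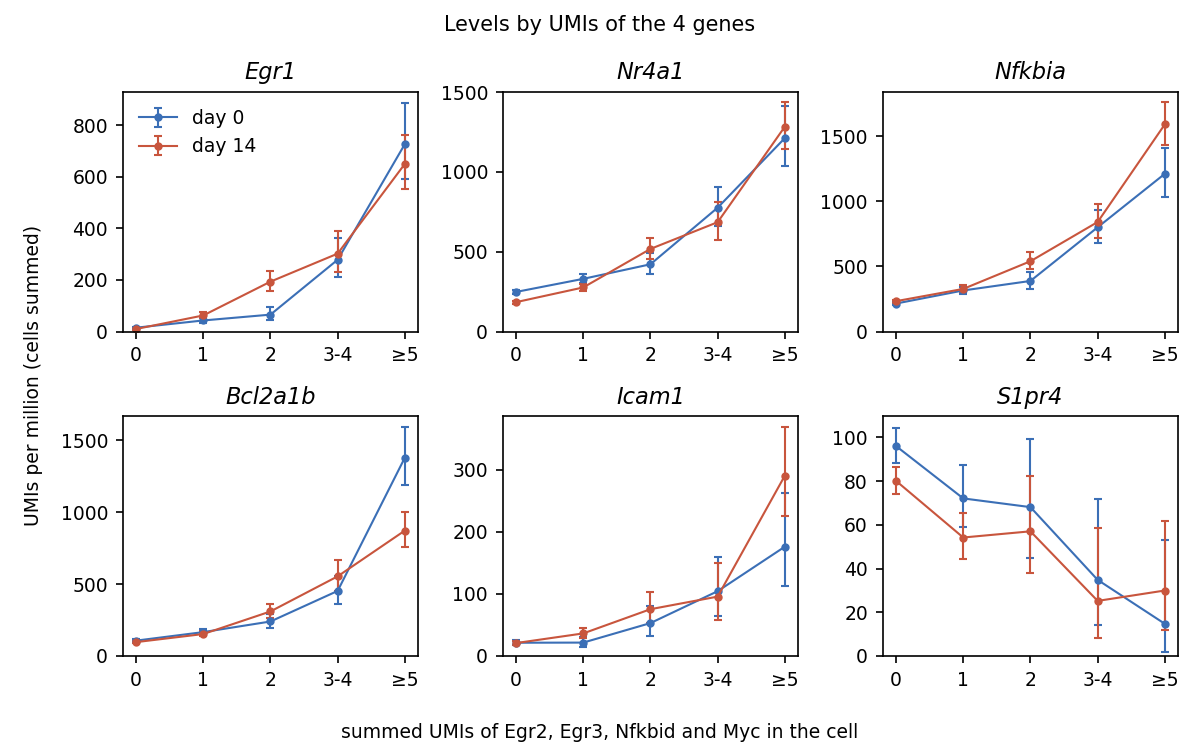
Level in CPM (y axis) of 6 genes in cells grouped by the summed UMIs of Egr2, Egr3, Nfkbid and Myc (x axis), at day 0 (blue) and day 14 (red), with exact 95% Poisson intervals. The groups with 3 or more UMIs hold activated cells only, so cells with 3 or more UMIs from 1 gene are left out. Egr1, Nr4a1, Nfkbia, Bcl2a1b and Icam1 are higher in each group from 2 UMIs on, and S1pr4 is lowest in the groups with 3 or more UMIs.

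The activated cells were not uniform. Cells with a Myc UMI (76 and 108 cells) were set beside those without (31 and 34 cells). Myc is in the rule, so the split is itself set by it. Under the rule every cell without Myc carried Egr2 or Egr3, while 37 and 45 cells with Myc carried neither. The split is therefore also one by Egr2 and Egr3. Bcl2a1b was 1.96 (1.43 to 2.75) and 1.61 (1.19 to 2.20) times higher with Myc, and Nr4a2 3.28 (1.17 to 12.7) and 2.20 (1.04 to 5.36) times. Nr4a1 was near equal, at 0.932 (0.731 to 1.20) and 1.10 (0.875 to 1.39). Others were lower with Myc on 1 of the days. Egr1 was at 0.550 (0.396 to 0.769) and 0.808 (0.597 to 1.11), Cd69 at 0.520 (0.372 to 0.730) and 1.02 (0.757 to 1.39), and Fos at 1.21 (0.849 to 1.76) and 0.575 (0.445 to 0.746). The cell cycle list was at 1.08 (0.807 to 1.46) and 0.536 (0.422 to 0.682). In cells with Egr2 or Egr3 over those without both, Egr1 was at 3.98 (2.33 to 7.31) and 1.51 (1.10 to 2.12). Cd69 was then at 2.62 (1.65 to 4.38) and 1.56 (1.15 to 2.13). Fos was at 1.19 and 1.41, and Bcl2a1b at 1.38 and 0.776. The parts of Myc and of Egr2 and Egr3 in these values were not separated. The listed MYC target genes summed to 1.34 (1.23 to 1.46) and 1.10 (1.02 to 1.19) times the level without Myc. Ccl4, a chemokine that attracts T cells and is made by B cells after receptor stimulation, had all its 66 and 20 UMIs in activated cells with Myc. These were few cells, and reference cells, which hold no Myc UMI, also had some of its UMIs.

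Ccl4 lay in few cells. Activated cells held 66 UMIs of it in 9 cells at day 0, the highest with 24, and 20 UMIs in 5 cells at day 14, the highest with 13. Reference cells held 4 UMIs in 2413 cells and 16 in 3549. The ratios were 276 (103 to 1043) at day 0 and 24.1 (11.9 to 49.8) at day 14, and 176 and 8.45 without the activated cell holding most. Against all other cells of the library under the immunoglobulin limit they were 25.1 and 13.7, so the size of the day 0 value rests on the choice of reference cells. At day 14 the ratio was 42.6 against depth-weighted reference cells and 37.7 without the heat shock cells. Its neighbour in the chemokine family, Ccl3, had 7 and 3 UMIs in activated cells. No Il6 UMI and at most 1 Il10 UMI was found in activated cells on either day, so these cytokines were not detectable at this depth.

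Finally the activated cells of both days were set side by side, which asks whether the program differed between untreated mice and mice recovering from DSS. Of 3468 genes measured for this, 70 (2.02%) passed 2-fold towards day 14 and 101 (2.91%) towards day 0. The share of higher genes among these calls was 40.9%, and 51.5% (84 and 79 genes) with TMM factors and 56.9% (91 and 69 genes) with median-of-ratios factors, so the split between directions is not firm. Reference cells had 4 and 6 such genes on far more UMIs (5641222 and 8347876, against 337266 and 432316 in activated cells).

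The interferon-gamma-associated list was higher after recovery in both kinds of cells. Its summed level was 1.61 times higher in activated and 1.54 times in reference cells. Serpina3g, a serine protease inhibitor, went from 20.8 to 106 CPM in activated cells, a ratio of 5.13 (2.30 to 13.5), and had a ratio of 5.50 (4.41 to 6.93) in reference cells. The value in activated cells rested on 7 UMIs at day 0. Irf1, an interferon-inducible transcription factor, had ratios of 2.12 in activated and 1.91 in reference cells.

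Immediate early genes summed to a near equal level on the 2 days in activated cells and to a lower level at day 14 in reference cells. Their summed level at day 14 was 1.08 times (1.03 to 1.12) that of day 0 in activated cells and 0.790 times (0.779 to 0.802) in reference cells. The larger day 14 ratios of many of these genes therefore came with a lower reference level. Egr1 had a day ratio of 1.07 in activated and 0.660 in reference cells, and Fos of 1.22 and 0.616. In activated cells 2 of the 24 genes of the list measured between the days passed 2-fold towards day 14 and 1 towards day 0. These were Fosl2, an AP-1 subunit, at 2.24 (0.969 to 5.80) on 8 and 23 UMIs, Nab2, a corepressor of EGR factors, at 0.407 (0.185 to 0.852) on 23 and 12, and Jun. Jun had 2.71 (2.04 to 3.65) and 0.867, and it was at 1.04 in activated cells without the heat shock cells. Hspa1a was at 2.54 in activated and 0.941 in reference cells. In activated cells it was at 4.18 without the top cells and at 0.854 without the heat shock cells, which were picked partly by Hspa1a. Cited2, a transcriptional coregulator, was at 3.71 (1.70 to 9.20) and 0.838, on 8 and 38 UMIs.

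Among genes lower at day 14, Ccl4 had a ratio of 0.236 (0.136 to 0.395) in activated cells. S100a6, a calcium-binding protein gene, was at 0.191, but 85.7% of its day 0 UMIs were in 1 cell, and without the top cells the ratio was 1.003. Bex3 and Mrpl9, the latter a mitochondrial ribosomal protein gene, were at 0.241 and 0.186 on 13 and 5 UMIs at day 14. Rgs1 was lower in both kinds of cells, at 0.412 in activated and 0.367 in reference cells.

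**Figure D5:**
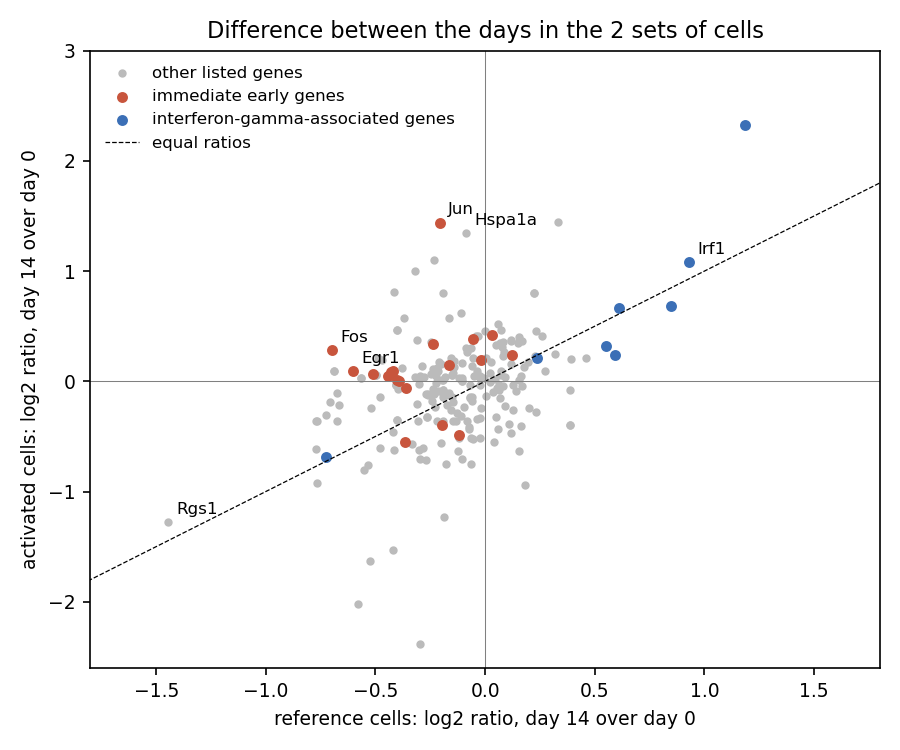
Log2 ratio of day 14 over day 0 in reference cells (x axis) and in activated cells (y axis) for the measured genes of the gene lists; the dashed line marks equal ratios. Interferon-gamma-associated genes (blue) lie mostly at the upper right in both, with Irf1 at ratios of 2.12 in activated and 1.91 in reference cells, and most immediate early genes (red) lie left of 0 on the x axis and near 0 on the y axis.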

How the data were processed

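Flow-sorted colonic B cells were measured in 2 libraries, 1 per group. Raw UMI counts came from the deposited matrices, whose headers name Cell Ranger 3.0.1. A second deposited table per library gives natural log values of scaled counts (the submitters' processing notes list Seurat 3.0) and only defined the cell set here. These tables leave out 86 of 3376 and 88 of 4780 barcodes by a filter not given in the sources used here, and 1 left-out barcode on each day met the rule. In a check of every 20th gene, 0 values were off by more than a relative tolerance of 0.001.

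Members, lists and tests were chosen with earlier results of these data known. Counts were summed per set and day (Python 3.11.15, scipy 1.17.1) and divided by UMIs without immunoglobulin and mitochondrial genes. Ratios have exact conditional intervals, sums exact Poisson and shares Clopper-Pearson intervals. No doublets were removed; cells above 2 times the median UMIs were left out in an alternative. Named genes were the 14 highest by lower and 10 lowest by upper bound of the ratio over both days, up to 4 members of each of 20 lists past 2-fold plus the gene with most UMIs, 5 a direction between days, and Egr1, Nr4a1 and Icam1. Fos, Cd86, Ncl, Exoc3, Nfkbiz, Ccl3, Il6, Il10, Mki67, Top2a, Bcl6, Prdm1, Irf1, Fosl2, Nab2, Dusp4 and Dusp5 were added after their values were seen. So were Nfkbib, Nfkbie, Tnfaip3, Cflar, Klf3, Cdkn1b and Tob2. Some of these genes are not reported here. Other factors came from edgeR 4.0.16. Ratios were checked on simulated Poisson counts of summed sets with known folds. These counts hold no spread between cells, so the check does not bear on genes held mostly by single cells.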

Additional observations from a re-analysis of the deposited data

Results flagged for a closer look

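N6amt1, which encodes a methyltransferase, lay in opposite directions on the 2 days. Its ratio of activated over reference cells was 2.18 (1.48 to 3.10) at day 0, on 35 UMIs, and 0.498 (0.226 to 0.956) at day 14, on 9 UMIs. This difference between the days was not tested. Without cells above 2 times the median UMIs of their library the ratios were 1.64 and 0.519.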

How the results depend on the processing

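The share of activated cells at day 0 and day 14 was 5.08% and 4.58% with at least 2 summed UMIs, 1.95% and 2.13% with at least 4, and 0.399% and 0.821% after thinning. Genes higher on both days (48) numbered 29 with an expected count of at least 20, 225 with no filter and 103 at 1.5-fold, and 35 to 51 under the other alternatives. Genes lower on both days (5) numbered 9 and 13 with at least 2 or 4 summed UMIs, 12 without the deepest cells, 8 with no immunoglobulin limit on reference cells, 17 as a mean of single cells, 3 with an expected count of at least 20, 101 with no filter and 74 at 1.5-fold, 10 without the heat shock cells and 31 without each gene's top cell. Of the 5 themselves, 1 and 2 were kept with at least 2 or 4 summed UMIs. The last 2 alternatives were chosen after seeing the data. Between the days within activated cells, the higher and lower genes (70 and 101) numbered 21 and 21 with an expected count of at least 20, 689 and 1030 with no filter, and 267 and 408 at 1.5-fold. S100a6 at day 0 turned from 4.31 to 0.617 without the deepest cells and to 0.616 without its top cell. The cause of the other shifts was not tested. No paired analysis was possible because each group holds 1 library and no test was made. Genes with few UMIs in 107 and 142 cells could not be read.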
